A study of Homo sapiens with 28 samples.

Results

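The peaks described here are the binding sites of CTCF in GP5d colon adenocarcinoma cells treated with siRNA to RAD21 (siRAD21) or with a neutral control siRNA. All rows of both CTCF lists were taken, 32196 under siRAD21 and 44027 under control siRNA. Together they make 76223 of the 393268 peaks in the 22 lists of the series. Chromatin immunoprecipitation with sequencing (ChIP-seq) recovers cross-linked DNA with an antibody, and a peak is a place where the sequenced fragments, counted as tags, pile up over an immunoglobulin G (IgG) background. The siRAD21 cells had received 50 nM of siRNA oligonucleotides to RAD21 and the control cells 50 nM of a neutral siRNA, and both were harvested after 72 hours. GP5d is an established line, and both CTCF libraries used the same goat antibody and a goat IgG library of their own siRNA. The siRNA tag in the labels names RAD21 for the siRAD21 CTCF library, whereas the tags of the other siRAD21 libraries carry rising numbers after the same stem, in conflict with their titles and descriptions.

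CTCF is a zinc finger protein that binds a long DNA motif, blocks enhancers from promoters beyond it, and marks the bases of chromatin loops. Cohesin is a protein ring that extrudes those loops and is halted at CTCF sites, where its subunits RAD21 and SMC3 are usually found. NIPBL loads the ring onto DNA, and H3K4me1 is a histone mark found at enhancers.

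There was 1 CTCF library per siRNA and therefore no replicate check of any difference. No test between the libraries was made, and every interval below covers counting error only. The siRAD21 CTCF library held 4163512 tags after filtering and the control library 12025319, a ratio of 0.346. Repeated positions made up 11% of the siRAD21 reads and 52% of the control reads. The goat IgG libraries were closer in depth, with 3293704 filtered tags under siRAD21 and 3914714 under control siRNA. Of the filtered tags, 25.4% lay in peaks under siRAD21 and 33.3% under control siRNA. The lowest count in a listed peak was 8 tags under siRAD21 and 13 under control siRNA. Depth and the siRNA cannot be told apart in these libraries. RAD21 and SMC3 lists of the same cells were shorter too, with 19752 and 12548 peaks under siRAD21 against 36204 and 38799 under control siRNA. The amount of RAD21 protein or RNA was not analysed here. The labels' CTCF target was set beside its partner: RAD21 was found at 80.9% of the control CTCF peaks that were also seen under siRAD21 and at 44.5% of those that were not.

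Most CTCF sites were found under both siRNAs. Control peaks that shared 1 bp or more with a siRAD21 CTCF peak were called kept and the others lost, and siRAD21 peaks that met no control peak were called new. Of the 32196 siRAD21 peaks, 4154 were new (12.9%, exact Clopper-Pearson 95% interval 12.5 to 13.3%). Of the 44027 control peaks, 16267 were lost (36.9%, 36.5 to 37.4%) and 27760 were kept. For the other cohesin-related lists the share lost was 53.4% for RAD21, 71.6% for SMC3 and 82.6% for NIPBL, and for H3K4me1 it was 25.7%. These shares are not on one scale, since the siRAD21 libraries held 0.615, 0.531, 0.352 and 0.528 of the control tags in that order, against 0.346 for CTCF. The control NIPBL list had 0 peaks with a false discovery rate under 5%. The kept peaks mostly matched in pairs: 430 control peaks (0.977%) overlapped 2 or more siRAD21 peaks, 153 siRAD21 peaks (0.475%) overlapped 2 or more control peaks, and 27060 pairs were unique on both sides. Under other thresholds and overlap rules new peaks were 9.54 to 21.1% of the siRAD21 list and kept peaks 55.5 to 77.8% of the control list. Few of the unmatched peaks had a near miss, since 8.28% of new peaks and 3.15% of lost peaks had a CTCF peak of the other list within 1000 bp.

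Lost sites were mostly weak ones. The strength of a peak is given as its score, −10 × log10 of the p-value that the peak caller MACS assigned. Kept peaks made up 20.9% of control peaks with scores from 50 to 100 and 41.1% of those from 100 to 200. The share was 66.6% from 200 to 400, 88.5% from 400 to 800 and 98.0% from 800 to 1600. At 1600 or more, 1974 of 1975 control peaks were kept. The same order appeared when the control tags of each peak were multiplied by 0.346, which gives the number of tags to be counted at the siRAD21 depth if nothing else differed. Of control peaks with fewer than 8 such tags 9.06% were kept, of those with 20 to 30 tags 71.2%, and of those with 50 to 100 tags 99.1%. In all, 27.7% of lost peaks had fewer scaled tags than the weakest peak of the siRAD21 list, and 90.3% had fewer than the siRAD21 median of 25 tags.

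New peaks were mostly weak as well. Scaled up to the control depth, 19.9% of them reached the control median of 70 tags, against 56.5% of the kept siRAD21 peaks. New peaks made up 25.8% of siRAD21 peaks with scores from 50 to 100, 8.43% from 100 to 200 and 4.38% from 200 to 400. The share was 3.09% from 400 to 800 (2.54 to 3.73%), 4.67% from 800 to 1600 (3.34 to 6.33%) and 4 of 86 peaks at 1600 or more, so it did not keep going down at high scores.

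**Figure D1:**
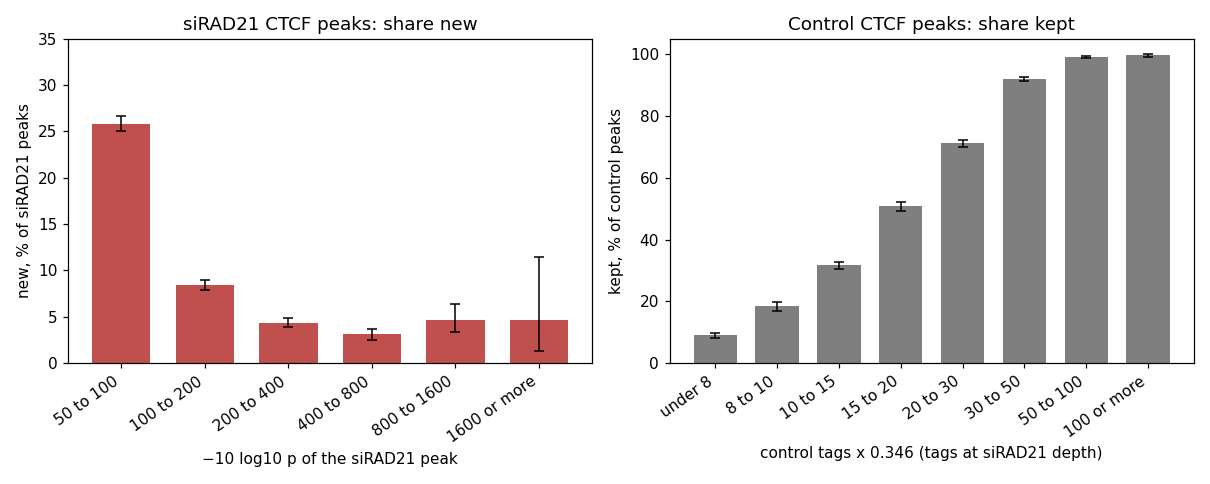
Bars show the share of siRAD21 CTCF peaks that were new by score (left) and the share of control CTCF peaks that were kept by tags scaled to the siRAD21 depth (right), with exact 95% binomial intervals. New peaks were 25.8% of the weakest siRAD21 class and 3.09 to 8.43% of the others, whereas kept peaks ran from 9.06% under 8 scaled tags to 99.8% at 100 or more.

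The classes differed in shape. New peaks had a median width of 1101.5 bp, against 1418 bp for kept peaks of the same siRAD21 library. Lost peaks had a median width of 1308 bp, against 1803 bp for kept peaks of the control library. The median count was 14 tags in new and 27 in kept siRAD21 peaks, and 32 in lost and 108 in kept control peaks. Tag density, the tags per kb of peak scaled to the depth of the library, had medians of 3.12 in new and 4.62 in kept siRAD21 peaks, and of 2.06 in lost and 4.87 in kept control peaks. Unmatched peaks of both libraries were therefore narrower, smaller and less dense than the matched ones, and new peaks were denser than lost ones. The lists had different floors, however: the lowest density was 1.80 in the siRAD21 list and 1.14 in the control list. Since a peak had to pass the calling threshold in both libraries to be kept, these strength measures describe the classes and do not test them.

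**Figure D2:**
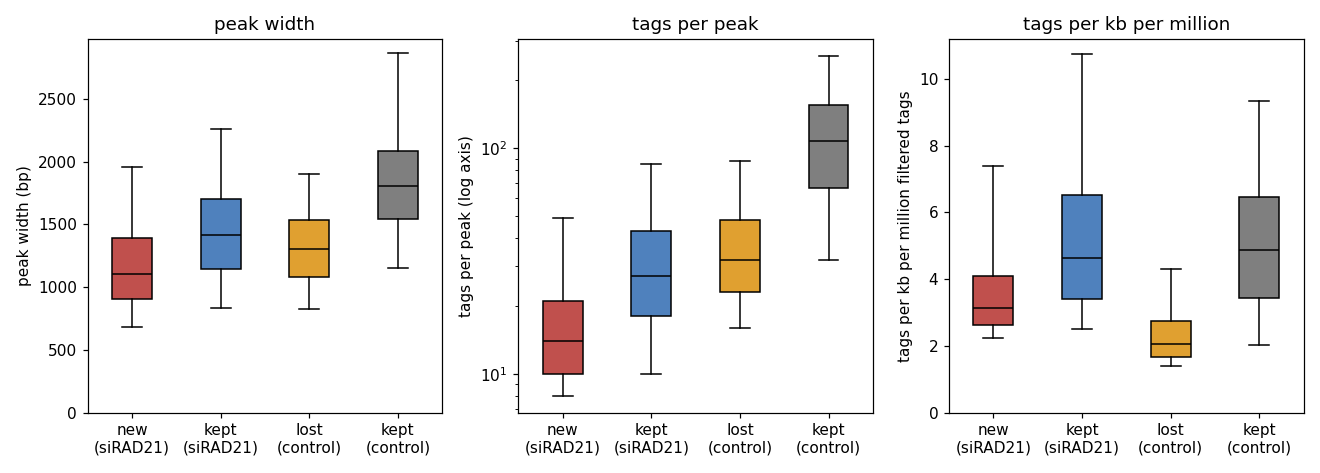
Boxes show the median and quartiles, and whiskers the 5th and 95th percentiles, of width, tags per peak (log axis) and tag density for new and kept siRAD21 peaks and lost and kept control peaks. The kept peaks of each library sit above its unmatched peaks in all 3 measures, with median densities of 4.62 and 4.87 in the kept peaks.

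In the kept peaks the median density of CTCF tags per kb was close to the same under both siRNAs, whereas other measures were lower under siRAD21. Pairs had to be called in both lists, whose lowest densities were 1.80 under siRAD21 and 1.14 under control siRNA. The ratios therefore describe called pairs only. Over the 27060 unique pairs the median density ratio, siRAD21 over control, was 0.996 (interval of the median 0.991 to 1.00), and the quartiles were 0.803 and 1.27. A ratio under 0.5 was found in 1.2% of pairs and one over 2 in 5.28%. The siRAD21 peak was the narrower one in 84.8% of pairs, and the depth-scaled tags of a peak, without division by width, had a median ratio of 0.770. Fold enrichments over local background had a median ratio of 0.880. The relation of the density ratio to strength turned round with the library that ranked the pairs. By siRAD21 score the median was 0.940 from 50 to 100, 0.938 from 100 to 200, 1.01 from 200 to 400, 1.17 from 400 to 800 and 1.43 above. By control score it was 1.58 from 50 to 100, 1.28 from 100 to 200, 1.04 from 200 to 400, 0.907 from 400 to 800 and 0.903 from 800 to 1600. No direction for strong or weak sites was therefore read from either split. The 16953 pairs with a control score of at least 400, called strong pairs below, had a median of 0.910, with 1.82% under 0.5 and 1.27% over 2. The 3973 pairs with a siRAD21 score of at least 400 had a median of 1.21.

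Summits hardly moved. The summit, the position of the highest pile of tags, differed by a median of 52 bp between the libraries, and 94.6% of pairs lay within 250 bp. It lay at a higher coordinate under siRAD21 in 13639 pairs, at a lower one in 13247 and on the same base in 174. Of the pairs that moved, 50.7% moved to the higher coordinate (50.1 to 51.3%). Strong pairs were placed more closely, with a median shift of 43 bp.

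**Figure D3:**
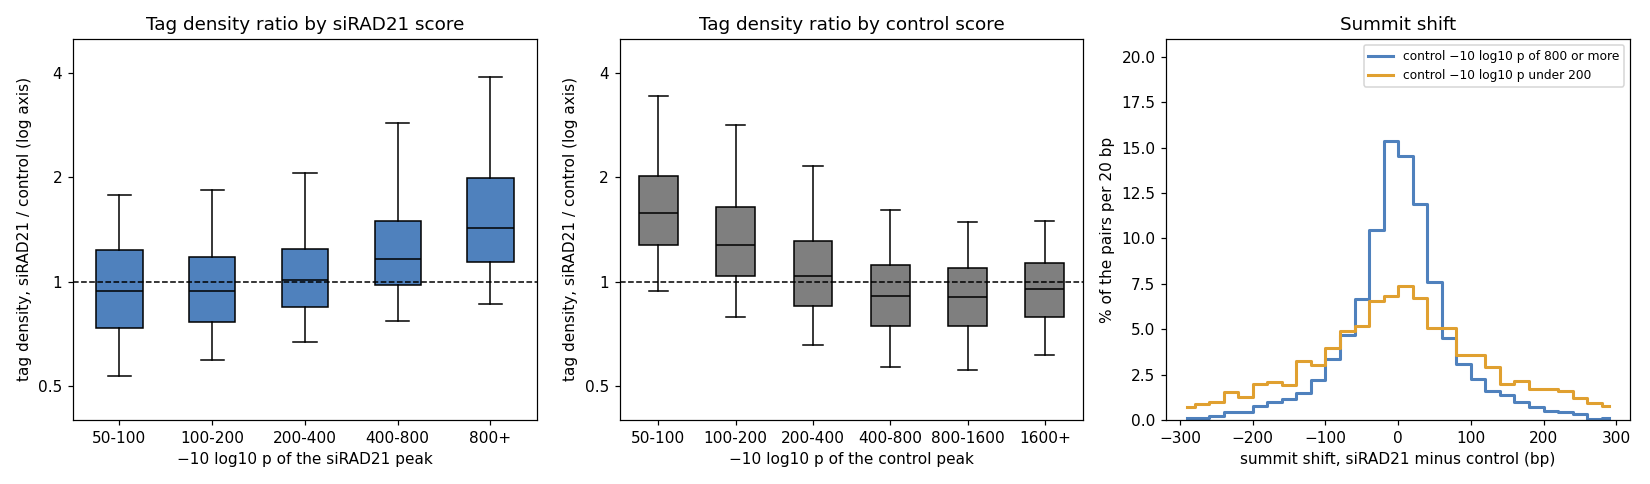
Tag density ratio (siRAD21 over control, log axis) of the unique kept pairs by siRAD21 score (left) and by control score (middle), with median, quartiles and 5th and 95th percentiles, and summit shift in bp for pairs with control scores of 800 or more and under 200 (right). The median ratio was 0.940 in the weakest and 1.43 in the strongest siRAD21 class, but 1.58 in the weakest control class and 0.903 at control scores of 800 to 1600, and the shifts centre near 0 with a narrower spread at high scores.

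Cohesin at these same sites gave lower ratios than CTCF. At 13969 unique CTCF pairs with a RAD21 peak under both siRNAs, the median density ratio was 0.675 for RAD21 and 0.933 for CTCF, and RAD21 had the lower ratio at 11320 of the sites. At 9446 pairs with SMC3 under both, the median was 0.513 for SMC3 and 0.937 for CTCF, and SMC3 had the lower ratio at 8856 of them. The CTCF and cohesin libraries were scaled separately, each by its own filtered tags, so a ratio also carries the quality of its library. Over all unique kept pairs of a target, the median ratio was 0.997 for H3K4me1, 1.02 for NIPBL and 1.33 for REST, whereas it was 0.621 for MYC and 0.672 for JUND. Ratios below that of CTCF were therefore not particular to RAD21 and SMC3. The measured distance between cohesin and CTCF summits was also larger under siRAD21. For RAD21 it had a median of 52 bp under siRAD21 and 27 bp under control siRNA, and for SMC3 it was 63 bp and 27 bp. The siRAD21 libraries held 0.615 (RAD21), 0.531 (SMC3) and 0.346 (CTCF) of the control tags, and the CTCF summit itself differed by a median of 52 bp between libraries. Less exact placing of summits at lower depth and a change of position cannot be told apart here. Where both RAD21 summits lay 20 to 300 bp from the CTCF summit, they were on the same side of it at 58.7% of 6456 sites (57.5 to 59.9%). With the control H3K4me1 summit in place of the control RAD21 summit the share was 50.2% of 827 sites (46.7 to 53.6%).

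New CTCF peaks lay in a different setting from the kept ones. They overlapped the enhancer mark more often and cohesin less often. H3K4me1 was found at 59.1% of new peaks and 26.6% of kept siRAD21 peaks in the siRAD21 lists. RAD21 was found at 14.9% of new and 54.2% of kept peaks, and SMC3 at 6.43% of new and 36.2% of kept peaks. The catalogue number listed for H3K4me1 is known for an antibody against total histone H3, so what these lists record is not settled. At like strength, that is averaged over 5 classes of score with Mantel-Haenszel weights, new minus kept was 37.2 percentage points for H3K4me1 (35.6 to 38.8) and −23.1 for RAD21. The difference was also seen in the control list, where 44.6% of new peaks and 26.7% of kept siRAD21 peaks overlapped a control H3K4me1 peak, a difference of 20.9 points at like strength. Among siRAD21 peaks inside H3K4me1, 24.7% were new, against 7.62% outside.

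Transcription factors and NIPBL were also more frequent at new peaks. MYC, a growth regulator, was found under siRAD21 at 17.5% of new and 5.23% of kept peaks. HNF4A, a nuclear receptor of intestinal and liver cells, was found at 11.3% of new and 3.35% of kept peaks. NIPBL was found at 14.4% of new and 3.81% of kept peaks. For MYC the difference was there in the control list as well, at 954 of 4154 new and 2621 of 28042 kept peaks, and likewise for KLF5, a factor of the intestinal epithelium, at 465 and 1202 of the same peaks. NIPBL in the control list was at 7.44% of new and 7.53% of kept peaks, a difference of 1.44 points at like strength (0.572 to 2.31). The catalogue number of the MYC antibody belongs to a mouse antibody, whereas the label names rabbit.

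JUND, a subunit of the AP-1 factor, was found under siRAD21 at 25.4% of new and 7.87% of kept peaks, and in the control list at 2.74% and 1.94%. The siRAD21 JUND library held 2.02 times the filtered tags of the control one, and its list held 12319 peaks against 4678 under control siRNA. Only 718 of the siRAD21 peaks and 0 of the control peaks had a false discovery rate (FDR) under 5%. With lists limited to such peaks, new minus kept at like strength was 1.86 points for JUND in place of 19.4. The same limit gave 2.60 points in place of 13.4 for MYC, 3.10 in place of 11.5 for NIPBL and 5.23 in place of 8.76 for HNF4A, whereas H3K4me1 gave 32.4 and RAD21 −19.4. SMC3 gave −6.11 in place of −16.5. A summit within 250 bp was also used as the criterion, between the CTCF lists as well. The values were then 9.26 points for JUND, 6.34 for MYC, 5.72 for NIPBL and 3.21 for HNF4A. All of these intervals were clear of 0. Of all new peaks, 36.6% had no control peak of the 10 other targets, against 9.25% of kept siRAD21 peaks. The gap was not particular to new peaks, since it was 35.4% of lost against 9.20% of kept control peaks. No peak of these targets under either siRNA was found at 25.3% of new and 33.3% of lost peaks. These shares were not matched by strength.

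The 149 strong new peaks, with scores of at least 400, were 3.43% of the 4348 siRAD21 peaks of that strength. They carried cohesin more often than new peaks in general. RAD21 was found under siRAD21 at 69.8% of them (61.7 to 77.0%), against 84.0% of strong kept peaks, and H3K4me1 at 80.5% (73.3 to 86.6%) against 42.5%. In the control lists 66.4% of strong new and 93.7% of strong kept peaks overlapped RAD21.

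**Figure D4:**
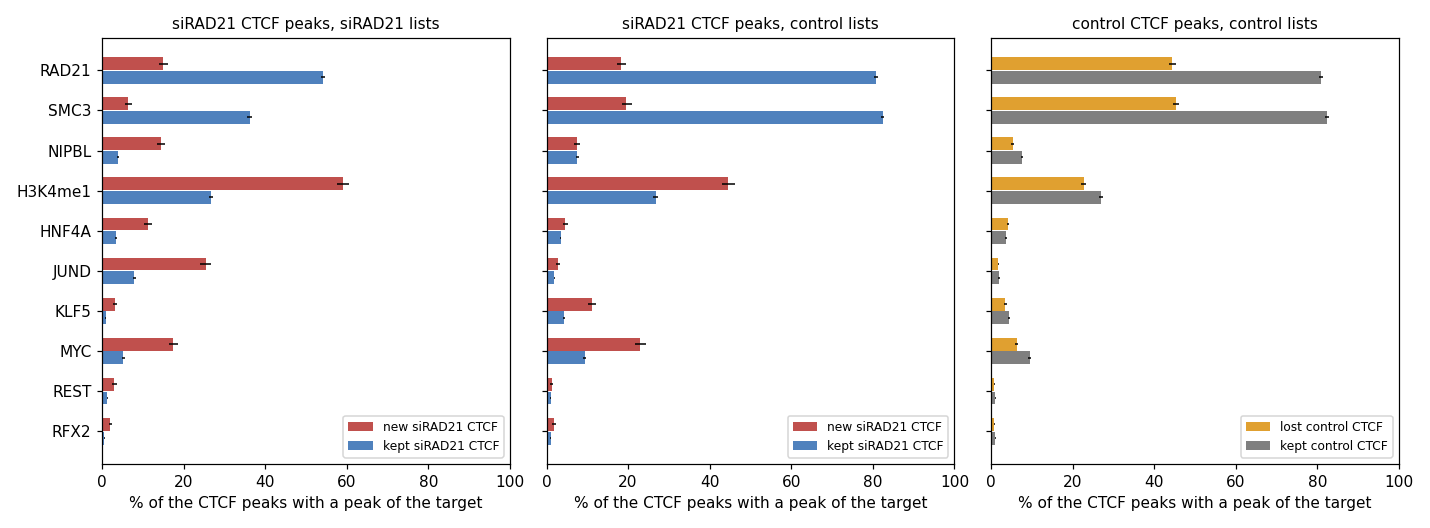
Bars show the share of CTCF peaks that overlap a peak of each of the 10 other targets, with exact 95% binomial intervals. Left and middle, new and kept siRAD21 CTCF peaks against the siRAD21 and the control lists. Right, lost and kept control CTCF peaks against the control lists. New peaks exceed kept peaks for H3K4me1 (59.1 against 26.6% in the siRAD21 lists) and are below them for RAD21 and SMC3.

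Lost CTCF peaks overlapped cohesin less often, but the difference was far smaller among peaks of like strength. In the control lists RAD21 was found at 44.5% of lost and 80.9% of kept peaks and SMC3 at 45.4% of lost and 82.5% of kept peaks. At like strength the difference shrank to −2.03 points for RAD21 (−3.10 to −0.952) and −3.86 for SMC3. The RAD21 difference did not hold up: with 20 classes of score it was 0.0479 (−1.03 to 1.12) in lists with FDR under 5% it was 1.24 (−0.0180 to 2.50), and with classes of fold enrichment it was −11.6. H3K4me1 was at 22.7% of lost and 27.0% of kept peaks, −6.06 points at like strength, and MYC at 6.36% and 9.52%, −5.15 points. No other classes or settings were run for the SMC3, H3K4me1 and MYC differences. HNF4A was the only one of the 10 other targets found more often at lost peaks, at 4.14% of lost and 3.61% of kept peaks, with a like-strength difference of 0.269 (−0.186 to 0.724).

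Cohesin was found again under siRAD21 less often at lost CTCF sites than at kept ones. Where control RAD21 had been found, RAD21 was found again under siRAD21 at 22.3% of lost and 65.1% of kept CTCF sites. For SMC3 the shares were 9.54% and 43.3%. Over all control CTCF peaks, with or without control cohesin, lost minus kept in siRAD21 RAD21 was −43.1 points plainly and −12.2 at like strength (−13.2 to −11.2), and in siRAD21 SMC3 −31.5 and −8.10 (−8.86 to −7.34). No finer classes of score, other measure of strength or other matching rule was run for these like-strength differences. With finer classes of score the control RAD21 difference moved from −2.03 to 0.0479 points. How much of the siRAD21 differences would remain with finer classes was not tested. Among strong control peaks the starting point was alike, with RAD21 at 94.6% of 1192 lost and 94.1% of 17417 kept peaks. There RAD21 was found under siRAD21 at 55.3% of lost (52.4 to 58.1%) and 70.8% of kept peaks (70.1 to 71.4%), and SMC3 at 28.8% and 50.0%. Even in this class the lost peaks were the weaker ones, with a median score of 532 against 841, and the shares of this class were not matched by strength.

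The number of other targets at a site was related to its fate. Control CTCF peaks with no other target were kept in 30.8% of cases, those with 1 in 41.8% and those with 2 in 74.2%. The share was 79.9% at 3 targets, 79.1% at 4 and 63.1% at 7 (56.9 to 69.0%). Median scores were not taken by number of targets but by cohesin and H3K4me1. They were 621 and 536 with both cohesin subunits, with and without H3K4me1, against 94.9 and 89.8 with neither subunit. The kept shares of these classes were 80.9%, 77.2%, 42.3% and 31.8% in that order, and the part of strength was not tested. New peaks were 13.8% of siRAD21 peaks with no other target, 14.1% with 1, 6.86% with 2, 14.5% with 3, 22.3% with 4 and 29.6% with 5.

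CTCF sites near another CTCF site were kept somewhat more often. Control peaks with another control CTCF summit within 10 kb were kept in 67.7% of cases and the others in 60.6%, a difference of 4.55 points at like strength (3.81 to 5.29). With a limit of 2 kb the plain shares were nearly alike, 64.3% and 63.0%, and the difference at like strength was 11.8 points. With 50 kb the shares were 65.1% and 52.5% and the difference 6.55 points. Control peaks that lay under the same siRAD21 peak were all kept by rule. They lay under 152 siRAD21 peaks that overlapped 2 control peaks each and 1 that overlapped 3. In all, 1059 control peaks had another control summit within the 2 kb limit. The part of this rule in the 2 kb difference was not tested. Matching by summits within 250 bp in place of overlap gave 3.03 points at 10 kb (2.27 to 3.78). New peaks were also more frequent near other siRAD21 summits, making up 15.3% of peaks within 10 kb and 11.7% of the others. Neighbouring peaks had the same fate more often over short distances. Neighbours that overlapped the same siRAD21 peak were both kept by rule and were left in, and their part in this was not tested. When the next peak along the chromosome was lost, a control peak less than 3 kb before it was kept in 58.2% of cases, against 69.6% when the next was kept, −10.1 points at like strength (−14.0 to −6.26). The difference was −3.90 points at 10 to 30 kb, −2.16 at 100 to 300 kb, and 0.958 (−3.62 to 5.54) at 300 kb and more.

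Chromosomes differed in the share of CTCF sites kept. Chromosome 19, known for its high density of genes, kept 1166 of 1527 control peaks (76.4%, 74.1 to 78.5%), and chromosome 13 kept 586 of 1082 (54.2%, 51.1 to 57.2%). At like strength chromosome 19 stood 12.2 points above the rest (10.4 to 14.0) and chromosome 4 stood below it, at −7.38 points (−9.07 to −5.70). Of the 23 chromosomes, 7 were above the others with an interval clear of 0 and 8 below. Chromosome 19 also had the highest share of new peaks, 19.8% of 1473, and the X chromosome the lowest, 9.61% of 1093. The median density ratio of strong kept pairs was 1.06 on chromosome 19, 1.02 on chromosome 22 and 0.852 on chromosome 4, although chromosome 13, with the lowest kept share, had 0.886. Over pairs of any score the ratios were 1.14, 1.13 and 0.924 on chromosomes 19, 22 and 4, and over pairs with a siRAD21 score of at least 400 they were 1.36, 1.34 and 1.16. Of control CTCF peaks, 32.5% on chromosome 19 and 20.7% on chromosome 4 overlapped control H3K4me1. Over the 23 chromosomes this share had a Spearman rho of 0.856 with the kept share at like strength. With the plain kept share rho was 0.846 for CTCF. Among the 10 other targets the rho of H3K4me1 share and plain kept share ran from 0.430 for KLF5 to 0.902 for RAD21. The relation was therefore not particular to CTCF. All chromosomes share the same pair of libraries, and base composition was not analysed here.

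The chromosome 19 difference was present both at CTCF peaks with control H3K4me1 (6.99 points, 3.84 to 10.1) and at those without it (14.3 points, 12.2 to 16.5). It was not particular to CTCF. The kept share of chromosome 19 was above that of the other chromosomes at like strength in all 10 other targets, by 10.3 points for H3K4me1, 6.04 for RAD21 and 4.65 for SMC3, but the intervals of JUND, MYC, REST and RFX2 held 0.

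**Figure D5:**
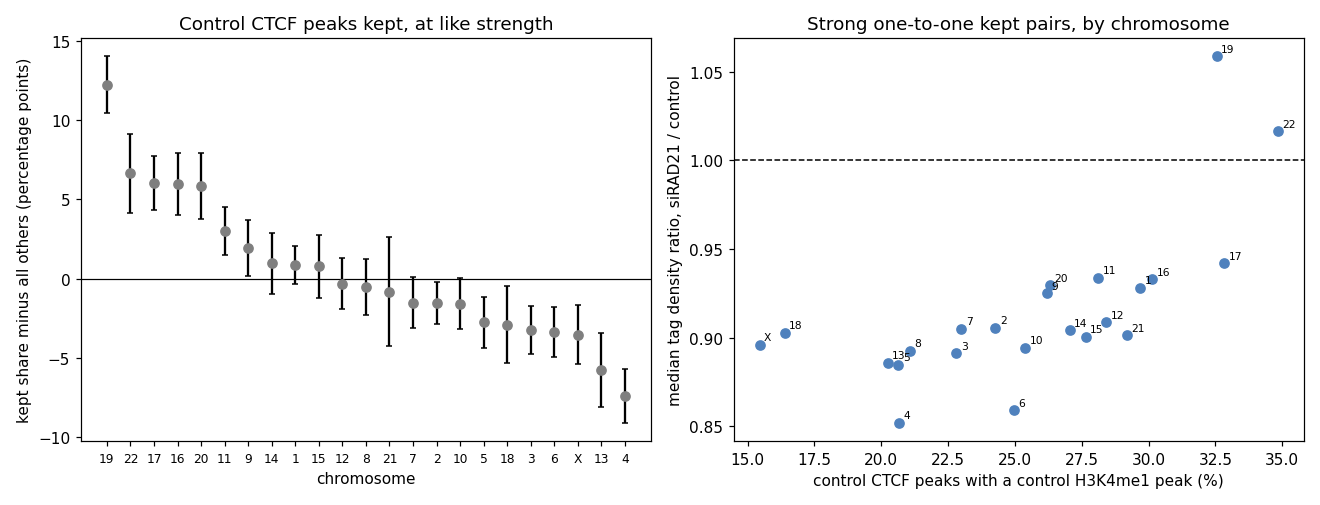
Left, kept share of control CTCF peaks on each chromosome minus that of all others at like strength, in percentage points with 95% intervals. Right, median tag density ratio (siRAD21 over control) of strong kept pairs against the share of control CTCF peaks with a control H3K4me1 peak, 1 point per chromosome. Chromosome 19 stands at 12.2 points and a ratio of 1.06, and chromosome 4 at −7.38 points and 0.852.

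Single regions show the extremes, with positions on the hg18 build. The peaks were named by rank within the lists, and no gene annotation of that build was used. A pair of kept control peaks shared the highest score, 3228. That at chr5:78464019-78466383 had 92 tags under siRAD21 and 383 under control siRNA, densities of 10.3 and 13.5. That at chr12:50703760-50707106 had 237 tags under siRAD21 and 560 under control siRNA, densities of 14.0 and 13.9. HNF4A, JUND, H3K4me1 and both cohesin subunits were found at the chromosome 12 site under both siRNAs, and RAD21 and SMC3 at the chromosome 5 site. The fourth strongest kept control peak, at chr11:124120323-124122479, had 128 tags and a density of 18.2 under siRAD21, against 316 tags and 12.2 under control siRNA. It had RAD21, SMC3, H3K4me1, KLF5 and MYC peaks under control siRNA and none of the 10 other targets under siRAD21.

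The 8 strongest lost peaks had cohesin under siRAD21 more often than strong lost peaks in general. Over all 1192 of those, RAD21 was found under siRAD21 at 55.3% and SMC3 at 28.8%. The strongest one, at chr11:99950652-99953641, had 217 control tags and a score of 1790, or 75.1 tags at the siRAD21 depth, and no siRAD21 CTCF peak within 1000 bp. RAD21 and SMC3 were listed there under both siRNAs. All 8 strongest lost peaks overlapped RAD21 under both siRNAs, and 6 of the 8 overlapped SMC3 under siRAD21. Others of the 8 were chr12:69398956-69400975, with 218 control tags, and chr4:83341020-83343306, with 213. The exceptions without siRAD21 SMC3 were chr16:80529823-80532986 and chrX:65864939-65866336.

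Among the 8 strongest new peaks, 7 overlapped control RAD21, and 5 overlapped RAD21 under siRAD21. The peak at chr2:94902976-94904920 had 159 tags, a score of 1728 and a density of 19.6, with RAD21 under both siRNAs and no other target. That at chr19:8476056-8478160 had 124 tags and a score of 1477. RAD21 and SMC3 were found there under control siRNA, and under siRAD21 NIPBL, H3K4me1, HNF4A, JUND and MYC as well. The peak at chr11:36487436-36489317, with 125 tags, had no cohesin peak under either siRNA and control H3K4me1 alone.

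Individual kept sites departed from the median ratio in both directions. The highest ratio among strong pairs, 5.37, was at chr22:34791021-34793334, with 198 tags under siRAD21 and 140 under control siRNA, and HNF4A and JUND were listed there only in the siRAD21 lists. The second, 5.18 at chr11:71821903-71823884, had 230 and 156 tags. The lowest, 0.290 at chr10:73757545-73759187, had 17 tags under siRAD21 and 211 under control siRNA, and its RAD21 and SMC3 peaks were found under both. The widest split was at chr17:43273403-43279400, a control peak of 5998 bp that overlapped 4 siRAD21 peaks.

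CTCF sites also came in clusters. The 50 kb window with the most control summits, chr7:38325114-38375113, held 10, of which 9 were kept, and 8 siRAD21 summits. Cohesin was sparse in it, with 1 RAD21 and no SMC3 summit under siRAD21, against 3 and 2 under control siRNA. Another window, chr9:138772805-138822804, held 6 siRAD21 summits and 9 control summits, of which 7 were kept.

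Lost peaks stood alone or in runs of up to 10. Of the 34209 control peaks with FDR under 5%, 75.2% were kept. Among them 4392 lost peaks stood alone between kept ones, 1163 runs held 2, 341 held 3 and 111 held 4. How many such runs a random order of these peaks would give was not tested. The longest run, 10 lost peaks over 1393 kb at chr13:36609925-38003367, had scores from 104 to 551. Counting peaks of any FDR, its region held 12 control CTCF peaks, 1 of them kept, and 1 siRAD21 CTCF peak. The same region held 1 RAD21 peak under siRAD21 against 9 under control siRNA. The next, 9 lost peaks over 3534 kb at chrX:91373160-94907356, had no H3K4me1 peak under either siRNA. There were 2 runs of 8. The one with more tags, over 442 kb at chr3:170333034-170774568, had 1 siRAD21 CTCF peak in its region. It had 10 H3K4me1 peaks under siRAD21 and 16 under control siRNA, and 2 NIPBL peaks against 9. Median scaled tags were 11.8, 12.8 and 21.3 in these 3 runs, all under the siRAD21 median of 25.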

How the data were processed

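CTCF and 10 other targets had 1 peak list per siRNA, and the 6 IgG libraries had none that was analysed here. Per the submitters' processing notes, CASAVA 1.4, BWA and MACS 1.4 were used with the hg18 build, and per the file headers peaks were called by MACS 1.4.0rc2 in each library against its IgG library, with a p cutoff of 1e-05 and a band width of 300 bp. Per the file headers, each deposited peak has a count of tags, a score (−10 × log10 of the p-value) and a fold enrichment, which is the authors' linear ratio over local background. The deposited files hold 10 columns under 9 names. The unnamed one was taken for the authors' FDR as a percentage: in all 22 libraries it has as many entries below 5 as the labels count at that FDR.

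All deposited peaks were used. Overlaps, tag densities, Clopper-Pearson intervals and Mantel-Haenszel differences were computed with Python 3.11.15, numpy 2.4.6, pandas 2.3.3 and scipy 1.17.1, and the overlap and difference routines were tested on simulated data. Pairs unique on both sides gave ratios and summit shifts. Regions were named by rank of score, density ratio, number of overlapping peaks, summits per 50 kb or length of run. The rules, classes and regions were chosen with earlier results of these data known. Alternatives were an FDR limit, a score limit, summit distance, mutual overlap, equal list lengths, other scalings and other classes of strength.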

Additional observations from a re-analysis of the deposited data

How the results depend on the processing

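No paired analysis was possible because each siRNA had 1 CTCF library. Kept control peaks were 75.2% with FDR under 5% in both lists, 55.5% with scores of at least 100, 59.3% with summits within 250 bp, 58.3% with mutual overlap of at least 0.5 of both widths, 77.8% with equal numbers of the strongest peaks and 62.6% without chromosome 19. The share of new siRAD21 peaks under the first 5 of these was 19.04%, 9.54%, 18.8%, 20.3% and 21.1%. The median density ratio was 0.770 without division by width, 0.345 without depth scaling, 0.971 with FDR under 5% and 0.880 as a ratio of fold enrichments. The median summit shift was 50 bp with FDR under 5%, 43 bp at control scores of at least 400 and 54 bp over all overlapping pairs. The lost minus kept difference in control RAD21 at like strength was 0.0479 points (−1.03 to 1.12) with 20 classes of score. With FDR under 5% it was 1.24 points (−0.0180 to 2.50), so both intervals held 0. It stayed below 0, with intervals clear of 0, at −3.61 with summits within 250 bp and −11.6 with classes of fold enrichment. Without classes it was −36.4. No alternatives were run for lost minus kept in the other lists. The spacing difference kept its sign and an interval clear of 0 under all 7 alternatives run, from 3.03 to 11.8 points. So did all 44 alternatives for the chromosome 19 and 4 differences and for the new minus kept differences of 7 targets, which were added after seeing the data. The siRAD21 depth limits what can be said of weak control peaks.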
